A study of Mus musculus with 69 samples.

Results

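The genes described here are 7 complement genes that macrophages transcribe: C1qa, C1qb and C1qc, which encode the chains of C1q, Cfp (properdin), C3, and the receptor genes C3ar1 and C5ar1. They were taken by symbol from a table of 56980 genes, and all 7 were among the 12008 genes that passed the filter on low counts. The cells were macrophages grown from the bone marrow of wild-type mice with 50 ng/mL M-CSF, the growth factor of macrophages, harvested on day 7, then cryopreserved and thawed. Each of 5 biological replicates came from the pooled marrow of 6 mice. The Cas9 nuclease and a guide RNA cut Rosa26, the locus edited as the control, or 1 of 6 genes. These were Atp6v1a (a subunit of the lysosomal proton pump), Npc1 (which moves cholesterol out of lysosomes), Pik3c3 (a lipid kinase needed for autophagy), Ctsd (cathepsin D, a protease of lysosomes), Grn (which encodes progranulin) and Trem2 (a surface receptor for lipids). Cells were collected 4 or 13 days after editing, giving 69 libraries in 14 groups of 5 libraries, or 4 for Npc1 at day 4. All groups, the Rosa26 control included, share the thaw, the M-CSF and the Cas9 treatment.

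Complement is a cascade of plasma and tissue proteins that marks targets for uptake and killing. C1q starts the classical pathway by binding antibody or exposed ligands on dying cells, properdin stabilises the convertase of the alternative pathway, and both pathways converge on cleavage of C3. The fragments C3a and C5a signal through the receptors encoded by C3ar1 and C5ar1, and tissue macrophages and microglia are a main source of C1q.

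Promoter sequences of 300 bases, from 250 before to 50 after each start, were at hand for 6 of the 7 genes from RefSeq on GRCm38.p6. The 4 that hold a motif searched here are shown, those of C1qb, C1qc, Cfp and C3ar1. All are printed 5′ to 3′ on the minus strand of the chromosome, which is the sense strand of the gene. Capitals mark the PU.1 core GAGGAA, which reads TTCCTC where it lies on the opposite strand, or the AP-1 motif TGACTCA. The windows are chr4:136886151-136886450 for C1qb, chr4:136892865-136893164 for C1qc, chrX:20931506-20931805 for Cfp and chr6:122856108-122856407 for C3ar1.
C1qb: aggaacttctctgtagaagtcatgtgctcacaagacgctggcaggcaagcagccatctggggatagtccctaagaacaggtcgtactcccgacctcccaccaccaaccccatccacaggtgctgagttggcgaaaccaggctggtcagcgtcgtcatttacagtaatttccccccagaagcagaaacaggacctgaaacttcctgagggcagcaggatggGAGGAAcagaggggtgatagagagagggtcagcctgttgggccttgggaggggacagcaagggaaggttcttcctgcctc
C1qc: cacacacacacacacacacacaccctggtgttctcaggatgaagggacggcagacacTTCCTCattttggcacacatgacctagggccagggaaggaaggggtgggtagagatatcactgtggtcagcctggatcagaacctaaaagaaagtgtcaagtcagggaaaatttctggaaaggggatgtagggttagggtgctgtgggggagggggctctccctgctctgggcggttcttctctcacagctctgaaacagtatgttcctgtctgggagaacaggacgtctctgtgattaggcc
Cfp: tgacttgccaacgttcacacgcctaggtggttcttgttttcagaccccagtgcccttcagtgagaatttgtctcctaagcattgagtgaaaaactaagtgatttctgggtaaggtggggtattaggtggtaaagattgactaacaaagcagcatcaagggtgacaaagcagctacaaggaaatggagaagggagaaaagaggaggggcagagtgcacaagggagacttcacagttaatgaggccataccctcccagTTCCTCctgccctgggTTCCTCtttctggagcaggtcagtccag
C3ar1: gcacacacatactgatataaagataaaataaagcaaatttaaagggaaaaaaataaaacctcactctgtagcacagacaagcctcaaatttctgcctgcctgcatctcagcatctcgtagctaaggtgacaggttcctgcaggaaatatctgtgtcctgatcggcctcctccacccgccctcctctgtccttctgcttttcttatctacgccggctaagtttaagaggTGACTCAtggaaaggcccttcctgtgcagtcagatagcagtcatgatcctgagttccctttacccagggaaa
The PU.1 core began at -30 from the start of C1qb, at -193 of C1qc and at both 7 and 23 of Cfp. AP-1 began at -22 of C3ar1. Neither motif was found in the windows of C3 and C5ar1. The MAF motif TGCTGAC and the E-box CACGTG were searched on both strands too, without a match in any of the 6 windows. Of 32851 mouse promoters of the same length, 28.3% hold the PU.1 core, 5.2% AP-1, 4.67% the MAF motif and 7.15% the E-box, so a match to the PU.1 core is common. Whether a motif bears on the level of its gene was not tested.

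Levels are counts of the 3' tags scaled to the library total (CPM), in which each message is read at its end. Changes are given on the log2 scale, ± SE, relative to the Rosa26 group collected on that day. They come from 1 edgeR quasi-likelihood fit over all 69 libraries. Its protocol term takes the difference between 2 library protocols to be the same in all groups for a gene. A gene was called at a Benjamini-Hochberg adjusted p under 0.05 over the 12008 genes. Library totals ran from 2194566 to 4688285 counts. A label divides the libraries into 47 Regular and 22 Low-input ones. All Low-input libraries are of day 13 except replicate 1 of Trem2 at day 4. Trem2 at day 13 has Low-input libraries only, so its changes lean on a protocol difference estimated in the groups that hold both protocols. Rosa26 at day 13 has 1 Low-input library, replicate 5, and Pik3c3 at day 13 has 1 Regular library. In fits to 1 protocol such a lone library was assumed to vary like the libraries of the other groups, and a call or its loss there rests on 1 sample in an arm. Targeted messages stood at 17.2% to 73.5% of the Rosa26 level in the 12 targeted groups, all called lower, and 3' tags do not show whether the protein was lost. All 9 macrophage markers were present, with a summed level of 7481 to 24340 CPM per library and a group mean of 22940 CPM in Trem2 cells of day 13 against 11980 CPM in Rosa26 cells of that day. These sums are not adjusted for protocol, which differs between the 2 groups. The highest Rosa26 library of day 13 stood at 14890 CPM. Lyz2 led the macrophage sum, with group means from 6677 to 17750 CPM, so this sum leans on 1 gene. Markers of other cells were low, with a sum over 10 neutrophil markers of 1.07 to 41.9 CPM, over 6 stromal markers of 1.14 to 302.7 CPM and over 16 brain markers, led by Mbp, of 87.5 to 467.6 CPM. No marker of these 3 lists was at 0 in all libraries. The highest stromal sums in Rosa26 cells of day 13 were in replicates 5 (302.7 CPM) and 2 (88.6 CPM), against 21.99 to 33.3 CPM in the other 3 libraries of that group.

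All 7 genes were detected in every library. C3ar1 was read most, at 583 to 1357 CPM with a median of 1129 CPM. The C1q genes followed with medians of 767 CPM (C1qb), 701 CPM (C1qc) and 579 CPM (C1qa), then Cfp with 355 CPM and C5ar1 with 236 CPM. C3, the hub of the cascade, was read at 5.76 to 42.9 CPM with a median of 17.5 CPM, so its changes carry the widest errors. Library protocol moved the genes unequally. Low-input libraries exceeded Regular ones by 1.19 ± 0.08 on the log2 scale for C1qa, 0.62 ± 0.07 for C5ar1, 0.58 ± 0.06 for C1qc, 0.32 ± 0.05 for Cfp and 0.26 ± 0.06 for C1qb, and fell below them by -0.09 ± 0.04 for C3ar1, all called, as were 67% of all genes. C3 differed by 0.04 ± 0.14, which was not called. For C1qa the difference was not equal over groups, although the fit takes it to be. Regular and Low-input libraries of day 13 had C1qa means of 289 and 1222 CPM in Grn cells. In Atp6v1a cells of day 13 these means were 475 and 782 CPM. The gaps of other members also varied between groups. In Grn cells of day 13 the Regular and Low-input means were 209 and 351.5 CPM for Cfp and 187 and 342 CPM for C5ar1. In Atp6v1a cells of day 13 they were 174 and 215 CPM for Cfp and 129 and 165.5 CPM for C5ar1. In Trem2 cells of day 4, C1qb was lower in the 1 Low-input library (845 CPM) than in the Regular mean (926 CPM). Whether these gaps differ beyond their spread was not tested.

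**Figure D1:**
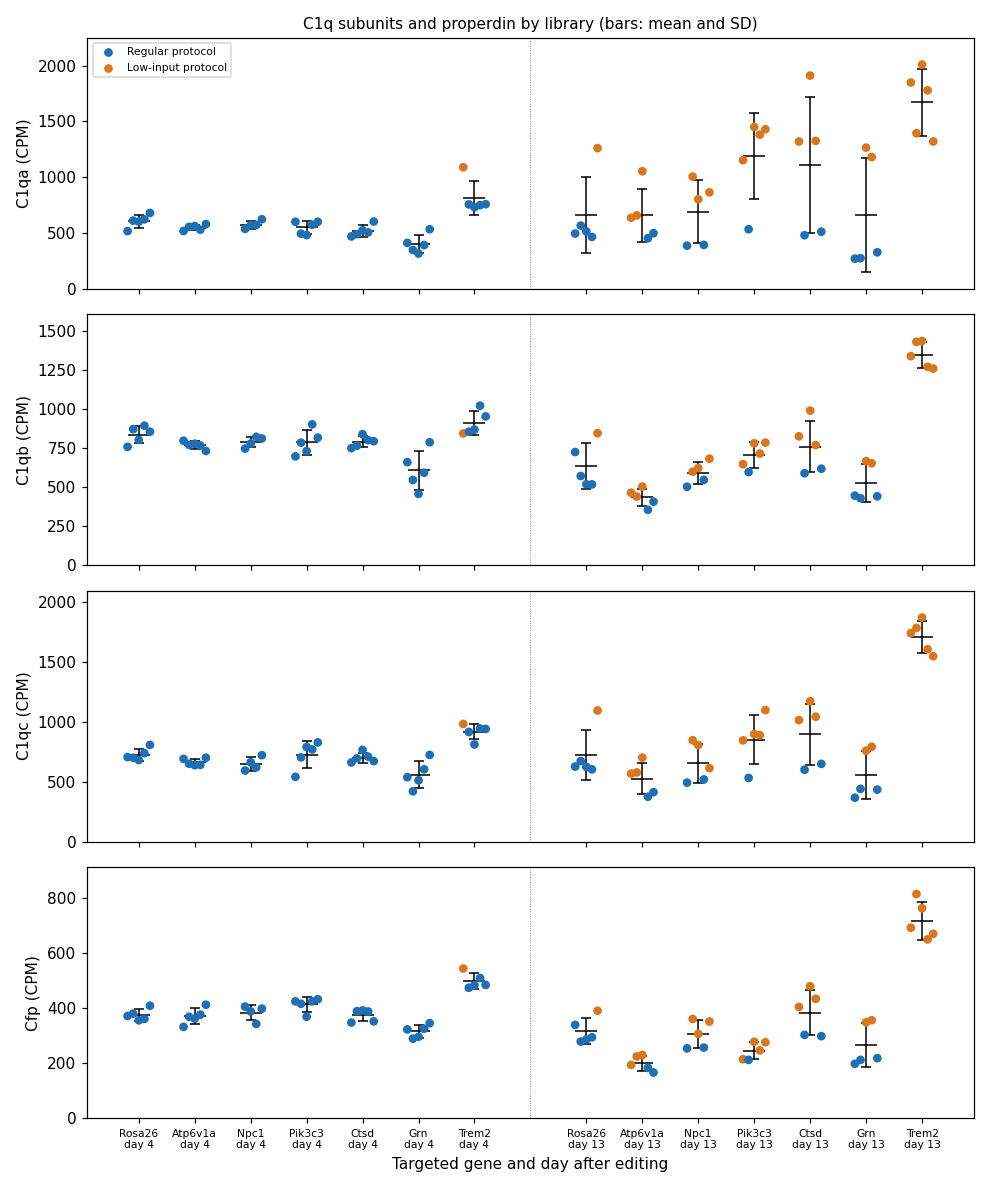
CPM of C1qa, C1qb, C1qc and Cfp in each library (points, coloured by library protocol) with the mean and SD of each group (bars), for 14 groups of target and day. Trem2 cells of day 13 are highest in all 4 panels, and at day 13 the Low-input libraries of a group lie above its Regular ones for C1qa.

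The C1q genes were lower in Grn cells at both days, lower in Atp6v1a cells at day 13 and higher in Trem2 cells at day 13. At day 4 in Rosa26 cells, C1qb (ENSMUSG00000036905.9) stood at 759, 873, 804, 895 and 856 CPM in replicates 1 to 5. In Grn cells of day 4 it stood at 661, 546, 457, 593 and 789 CPM. These groups overlapped in 1 Grn library, replicate 5, and the change of -0.45 ± 0.10 was called (adjusted p = 0.00138). C1qa (ENSMUSG00000036887.6) stood at 516, 610.3, 601, 622 and 679 CPM in Rosa26 cells and at 410.5, 347, 315, 391 and 533 CPM in Grn cells, all of the Regular protocol. Replicate 5 of Grn again was the only library that reached the Rosa26 range, and the change was -0.59 ± 0.14 (adjusted p = 0.00419). C1qc (ENSMUSG00000036896.6) changed by -0.37 ± 0.10 (adjusted p = 0.016), and 3 of the 10 libraries compared ended that call when left out singly (Rosa26 replicate 5 and Grn replicates 2 and 3), with values down to -0.27 (adjusted p = 0.106). In these bulk cultures, fewer cells that make a message and less of it per cell cannot be told apart. The brain-marker sum moved with the group, at 259.7 ± 40.5 CPM in Grn cells of day 4 against 137 ± 20.0 CPM in Rosa26 cells (SD, n = 5 each). A brain-marker covariate, the mean log2 CPM of the 16 markers and not their sum, was added to the fit. With it the 3 C1q calls held, at -0.96, -0.57 and -0.55 for C1qa, C1qb and C1qc.

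At day 13 the fall of C1qa in Grn cells was seen in libraries of 1 protocol. Among Regular libraries, C1qa stood at 495, 565, 513 and 464 CPM in Rosa26 cells and at 269, 273 and 326 CPM in Grn cells. These did not overlap, and a fit to Regular libraries alone gave -0.72 (adjusted p = 3.1e-06). Among Low-input libraries the single Rosa26 value was 1260 CPM and the Grn values were 1265 and 1180 CPM, a change of 0.03 in a fit to those libraries. Over all libraries C1qa changed by -0.40 ± 0.14 (adjusted p = 0.0349), C1qb by -0.29 ± 0.10 (adjusted p = 0.0202) and C1qc by -0.48 ± 0.10 (adjusted p = 0.000268). The C1qa call ended without any 1 of 6 of the 10 libraries and the C1qb call without any 1 of 4, while the C1qc call held without each. For C1qc the Low-input value was -0.43, beside -0.52 in Regular libraries. Brain-marker sums were 107 ± 14.01 CPM in Grn cells of day 13 and 281 ± 105 CPM in Rosa26 cells. With the brain-marker covariate none of the 3 C1q genes was called, with C1qc at -0.31 (adjusted p = 0.0567), C1qb at -0.18 and C1qa at -0.09.

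In Trem2 cells of day 13 the C1q genes reached their highest levels of the series. C1qb stood at 1341, 1433, 1438, 1273 and 1261 CPM there, and in Rosa26 cells of that day at 726, 572, 519, 518 and, in the Low-input replicate 5, 847 CPM. C1qc stood at 1741, 1784, 1871, 1606 and 1548 CPM, against 627, 673, 624 and 603 CPM in Regular and 1095 CPM in Low-input Rosa26 libraries. All 5 Trem2 libraries lay above all Rosa26 libraries for both genes. C1qb rose by 0.82 ± 0.11 (adjusted p = 7.22e-09) and C1qc by 0.74 ± 0.11 (adjusted p = 3.55e-07). Against the single Low-input Rosa26 library, whose spread was taken to be that of the other groups, the changes were 0.69 (adjusted p = 0.00433) and 0.66 (adjusted p = 0.0146). C1qa stood at 1849, 1394, 2010, 1779 and 1320 CPM in Trem2 cells, close to the 1260 CPM of the Low-input Rosa26 library at the lower end. Its rise of 0.43 ± 0.16 was called (adjusted p = 0.0392), and leaving out any 1 of 7 of the 10 libraries ended the call. The C1qa call was also lost in an edgeR fit to libraries of day 13 alone (0.38, adjusted p = 0.125). Against the single Low-input Rosa26 library the C1qa value was 0.43 and was not called. Summed macrophage markers, led by Lyz2 and not adjusted for protocol, also stood higher in Trem2 cells of day 13, and their part in these rises was not tested. Without Rosa26 replicates 2 and 5, which had the highest stromal sums, C1qb gave 0.85 and C1qc 0.79, both called, and C1qa 0.46 (adjusted p = 0.101). No Low-input Rosa26 library of day 13 remains then, so these values rest on the protocol term. Stromal level and protocol cannot be told apart there. At day 4 in Trem2 cells, C1qa, C1qb and C1qc gave 0.18 ± 0.14, 0.06 ± 0.10 and 0.22 ± 0.10, none called. Replicate 1 of that group is the Low-input one, and among Regular libraries C1qa at 0.31 (adjusted p = 0.0129) and C1qc at 0.32 (adjusted p = 0.0182) were called.

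In Atp6v1a cells the C1q genes were lower at day 13 and not called at day 4. C1qb stood at 465, 440.4 and 504 CPM in Low-input and at 355 and 407 CPM in Regular libraries, below the Rosa26 libraries of each protocol. C1qc stood at 568, 577 and 701 CPM in Low-input and at 375 and 413 CPM in Regular libraries. C1qb fell by 0.73 on the log2 scale (SE 0.10, adjusted p = 2.44e-08) and C1qc by 0.77 (SE 0.11, adjusted p = 2.35e-08), and both were called within each protocol. C1qa changed by -0.48 ± 0.14 (adjusted p = 0.00892), a call that neither protocol gave alone (-0.18, adjusted p = 0.35 in Regular and -0.72, adjusted p = 0.0608 in Low-input libraries). Without Atp6v1a replicate 2 it was -0.38 (adjusted p = 0.0508). Marker sums of other cells also differed between these groups, at 10.6 ± 3.38 CPM in Atp6v1a and 3.20 ± 1.64 CPM in Rosa26 cells of day 13 for neutrophils, 10.5 ± 6.95 and 94.1 ± 119.8 CPM for stroma and 158 ± 70.2 and 281 ± 105 CPM for brain. With the brain-marker covariate all 6 members called in Atp6v1a cells of day 13 were still called. Without Rosa26 replicates 2 and 5, which had the highest stromal sums, C1qa gave -0.44 (adjusted p = 0.0639). The other members called in this group kept their calls, with C1qb at -0.70 and C1qc at -0.72. No Low-input Rosa26 library of day 13 remains then, so stromal level and protocol cannot be told apart there. The part of the neutrophil level was not tested. In Npc1 cells of day 13, C1qa gave -0.47 ± 0.14 (adjusted p = 0.042) and C1qc -0.43 ± 0.11 (adjusted p = 0.00776), with C1qb at -0.27 ± 0.10 (adjusted p = 0.119). Neither call was made within a protocol, and C1qa lost its call without any 1 of 9 of the 10 libraries. Pik3c3 and Ctsd cells had no C1q gene called at either day.

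The C1q chains assemble in equal numbers, which invites a look at the balance of their messages, although counts of 3' tags of different genes need not compare as molecules. Counts of C1qa per count of C1qb had a median of 0.719 and a range of 0.603 to 1.28 over 47 Regular libraries, and a median of 1.54 and a range of 0.973 to 2.09 over 22 Low-input libraries. C1qc per C1qb moved less, with a median of 0.911 in Regular and 1.25 in Low-input libraries. Among Regular libraries the highest C1qa to C1qb ratios were in Atp6v1a cells of day 13.

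**Figure D2:**
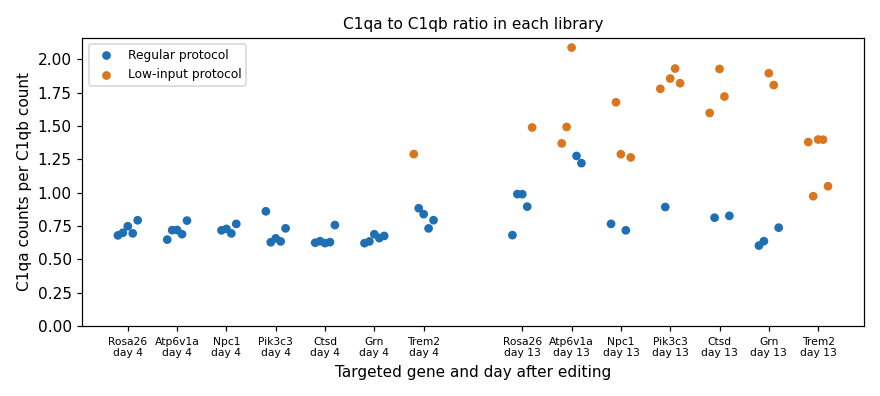
Counts of C1qa per count of C1qb in each of 69 libraries (points, coloured by protocol) by target and day. Low-input libraries lie between 0.973 and 2.09 and Regular ones between 0.603 and 1.28.

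Cfp (ENSMUSG00000001128.8), which encodes properdin, followed C1qb over the groups. In Rosa26 cells of day 13 it stood at 339, 278, 285 and 294 CPM in Regular and 389.8 CPM in Low-input libraries. In Trem2 cells of that day it stood at 691, 814, 762, 649 and 669 CPM, above every other library of the series. In Atp6v1a cells it stood at 193, 224 and 229 CPM in Low-input and 182 and 166 CPM in Regular libraries, below all Rosa26 libraries. The changes were 0.86 ± 0.09 for Trem2 (adjusted p = 3.19e-12) and -0.89 ± 0.08 for Atp6v1a (adjusted p = 7.5e-14). Both were called within Low-input libraries, at 0.90 and -0.88, and Atp6v1a also within Regular ones, at -0.86. In Pik3c3 cells of day 13 Cfp stood at 214, 277, 246 and 276 CPM in Low-input libraries and 211 CPM in the Regular one, a fall of 0.60 on the log2 scale (SE 0.08, adjusted p = 9.81e-08). Marker sums in these Pik3c3 cells were 11.3 ± 1.83 CPM for neutrophils, 15.1 ± 20.6 CPM for stroma and 148 ± 47.4 CPM for brain, and the calls of Cfp, C3ar1 and C5ar1 held with the brain-marker covariate. Pik3c3 is thus a group in which Cfp was called lower while C1qb, at -0.03 ± 0.10, was not. The difference between these genes was not tested.

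Smaller Cfp changes were found in 3 other groups. Trem2 cells of day 4 stood at 543, 473, 482, 509 and 484 CPM, with the Low-input replicate 1 highest, against 371, 379, 355, 360.2 and 408 CPM in Rosa26 cells. Cfp rose by 0.33 ± 0.08 (adjusted p = 0.000968). Brain-marker sums in Trem2 cells of day 4 were 330.4 to 467.6 CPM in Regular libraries and 119 CPM in the Low-input one. With the brain-marker covariate the Cfp value was 0.12 (adjusted p = 0.476). Grn cells gave -0.24 ± 0.08 at day 4 (adjusted p = 0.0464) and -0.31 ± 0.08 at day 13 (adjusted p = 0.00232). The day 4 call was lost with RLE scaling (-0.22, adjusted p = 0.071) and without any 1 of 7 of the 10 libraries. The day 13 value was -0.43 in Regular and -0.08 in Low-input libraries, the latter not called (adjusted p = 0.871), and the call was also lost with the brain-marker covariate (-0.18, adjusted p = 0.171) and with no filter on low counts (-0.29, adjusted p = 0.0732).

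C3 (ENSMUSG00000024164.16) was lower in Grn cells at both days and turned from lower at day 4 to higher at day 13 in Trem2 cells. In Rosa26 cells of day 4 it stood at 17.3, 22.9, 19.3, 24.2 and 26.9 CPM, and of day 13 at 17.2, 14.03, 17.0, 17.8 and 18.6 CPM. Grn cells stood at 11.0, 9.51, 6.35, 12.9 and 19.2 CPM at day 4, with replicate 5 inside the Rosa26 range. The day 4 change was -0.87 ± 0.25 (adjusted p = 0.018), and it lost its call without Rosa26 replicate 5 or Grn replicate 2 or 3. At day 13 the Regular Grn libraries were lowest, at 5.76, 6.15 and 7.74 CPM, and the Low-input ones stood at 11.6 and 14.5 CPM. That change was -0.84 ± 0.27 (adjusted p = 0.0148), with -1.22 in Regular and -0.45 in Low-input libraries, of which only the Regular value was called, and without Grn replicate 2 it was -0.72 (adjusted p = 0.058). Adding the brain-marker covariate gave -0.59 (adjusted p = 0.179).

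In Trem2 cells C3 stood at 11.1, 10.8, 14.5, 13.9 and 21.5 CPM at day 4 and at 26.9, 30, 34.4, 32.5 and 42.9 CPM at day 13. The day 4 change was -0.68 ± 0.25 (adjusted p = 0.033), and it was not called among Regular libraries (-0.55, adjusted p = 0.0849) or without any 1 of 6 libraries. At day 13 all Trem2 libraries exceeded all Rosa26 libraries, and C3 rose by 0.89 ± 0.26 (adjusted p = 0.00744). The value against the Low-input Rosa26 library was 0.87 (adjusted p = 0.157), and without Rosa26 replicates 2 and 5 it was 0.80 (adjusted p = 0.0882). The last value leaves no Low-input Rosa26 library of day 13 and so rests on the protocol term. In Pik3c3 cells of day 13, C3 stood at 17.5, 29.0, 31.5, 33.5 and 29.8 CPM, with replicate 1 alone inside the Rosa26 range. The change of 0.69 ± 0.25 missed the threshold (adjusted p = 0.0509), and without replicate 1 it was 0.82 (adjusted p = 0.0192). Atp6v1a cells gave 0.19 ± 0.24 at day 13, so C3 was the member not called in that group.

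**Figure D3:**
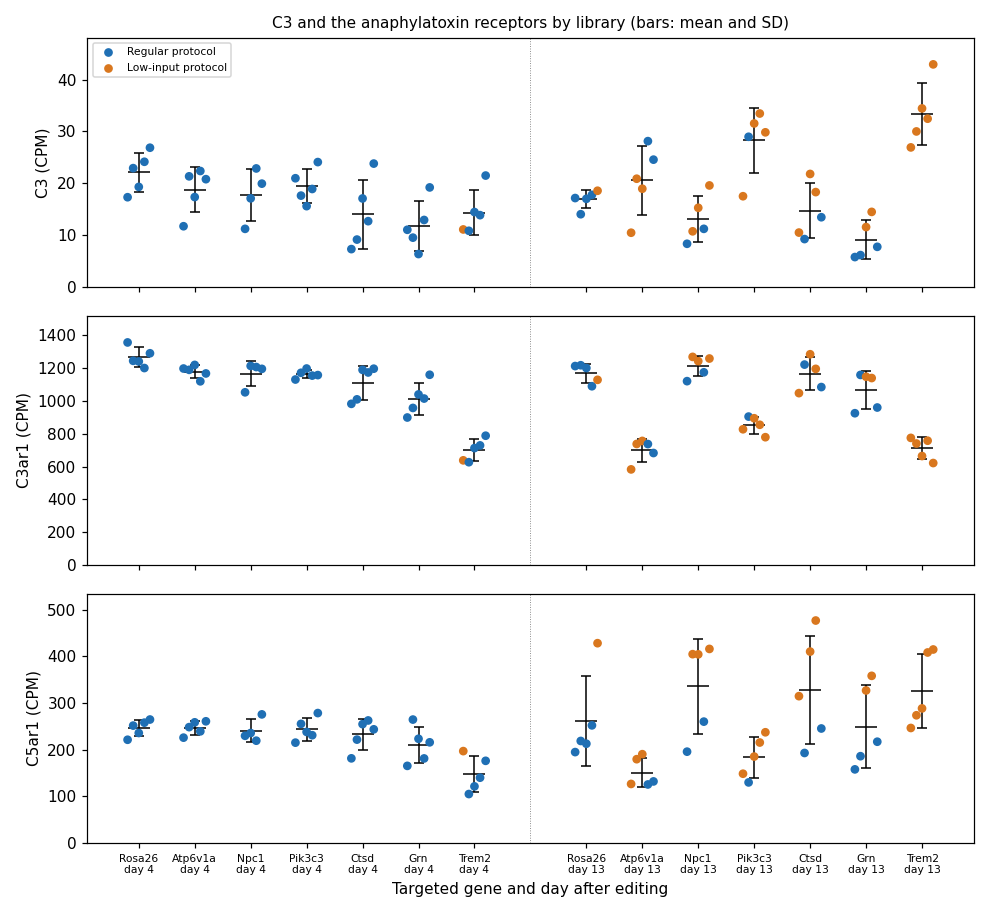
CPM of C3, C3ar1 and C5ar1 in each library (points, coloured by protocol) with the mean and SD of each group (bars), by target and day. C3ar1 lies under 800 CPM in all Trem2 libraries and in Atp6v1a cells of day 13, and the C5ar1 library highest in Rosa26 cells of day 13, at 427.9 CPM, is the Low-input one.

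The receptor C3ar1 (ENSMUSG00000040552.9), which binds C3a, was lower in Trem2 cells at both days and in Atp6v1a and Pik3c3 cells at day 13. Rosa26 cells stood at 1357, 1245, 1241, 1201 and 1291 CPM at day 4 and at 1213, 1218, 1201, 1090 and 1129 CPM at day 13. Trem2 cells stood at 638, 627, 713, 729 and 788 CPM at day 4 and at 775, 741, 665, 758 and 622 CPM at day 13. No Trem2 library reached the Rosa26 range at either day. C3ar1 fell by 0.86 (SE 0.07, adjusted p = 8.34e-16) and by 0.71 (SE 0.08, adjusted p = 2.63e-11) on the log2 scale. This gene hardly moved with protocol, and the values were -0.82 in Regular libraries of day 4 and -0.65 in Low-input libraries of day 13 (adjusted p = 0.00201). Atp6v1a cells of day 13 stood at 583 to 757 CPM and changed by -0.79 ± 0.07 (adjusted p = 3.82e-14), which was called within each protocol. Pik3c3 cells of day 13 stood at 779 to 905 CPM and changed by -0.44 ± 0.07 (adjusted p = 7.12e-06), again with no overlap. Within the protocols, where 1 arm is a single library, the Pik3c3 value was close to that, at -0.39 in Regular (adjusted p = 0.072) and -0.37 in Low-input libraries (adjusted p = 0.168). In Grn cells the change was -0.31 ± 0.07 at day 4 (adjusted p = 0.00198) and -0.08 ± 0.07 at day 13, which was not called.

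The receptor C5ar1 (ENSMUSG00000049130.7), which binds C5a, was lower in Trem2 cells of day 4 and in Atp6v1a and Pik3c3 cells of day 13. At day 4 Rosa26 cells stood at 221, 252, 236, 258 and 265 CPM, and Trem2 cells at 197, 105, 121, 140.0 and 176 CPM. The highest of these Trem2 values is the Low-input replicate 1, and the groups did not overlap. C5ar1 fell by 0.90 on the log2 scale (SE 0.13, adjusted p = 6.83e-08). At day 13 Rosa26 cells stood at 195, 219, 213 and 252 CPM in Regular and 427.9 CPM in Low-input libraries. Atp6v1a cells stood at 127, 179.6 and 190.3 CPM in Low-input and 126 and 132 CPM in Regular libraries, below every Rosa26 library. The fall of 1.08 on the log2 scale (SE 0.13, adjusted p = 4.6e-10) was the largest change of any member, and it was called within both protocols. Pik3c3 cells stood at 149, 185, 215 and 237 CPM in Low-input libraries and 129.9 CPM in the Regular one, a fall of 0.88 (SE 0.13, adjusted p = 4.47e-07). Within the protocols the values were -0.76 in Regular and -1.07 in Low-input libraries, each with 1 library in an arm. In Trem2 cells of day 13 C5ar1 stood at 246 to 414 CPM, under the Low-input Rosa26 value, with a change of -0.19 ± 0.14 that was not called (95% interval -0.46 to 0.08).

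**Figure D4:**
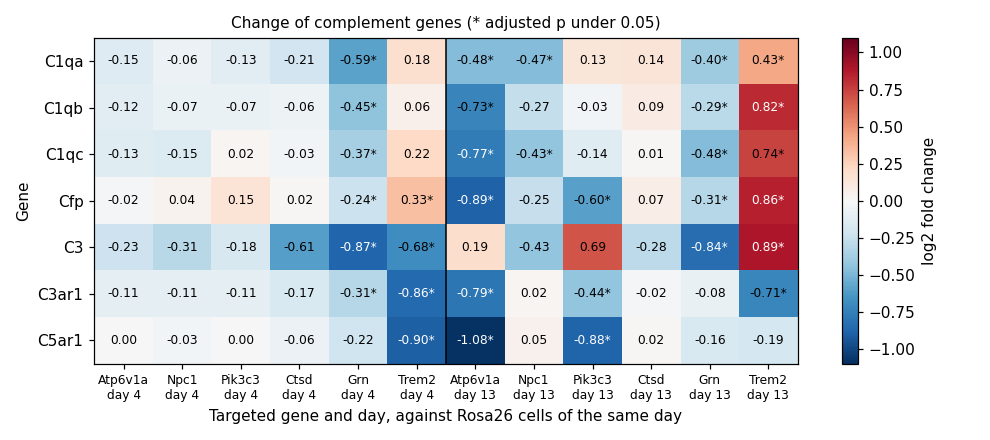
Log2 fold change of each of the 7 genes (rows) in each targeted group against Rosa26 cells of the same day (columns), with an asterisk at an adjusted p under 0.05. The columns of Atp6v1a and Trem2 at day 13 hold 6 calls each, all lower for Atp6v1a and 5 higher with 1 lower for Trem2.

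Counted over the 7 genes, 0 were called at day 4 in Atp6v1a and Npc1 cells, where 0.00833% of all tested genes were called in each, in Pik3c3 cells (0.175%) and in Ctsd cells (0.125%). At an unadjusted p under 0.05 there were 2 members in Ctsd cells of day 4 (C3 at -0.61 ± 0.24 and C3ar1 at -0.17 ± 0.07) and 0 in the other 3 groups, and DESeq2 called 0 in all 4. In Grn cells of day 4, 6 of 7 were called lower, beside 8.04% of all genes called, 3.6% lower. The median change of the 7 was -0.37 and that of all genes 0.00. In Trem2 cells of day 4, 1 was called higher and 3 lower, beside 24.3% of all genes (11.4% higher, 12.9% lower), with a member median of 0.06. At day 13 the Atp6v1a count was 0 higher and 6 lower (24.4% of all genes called, 11.6% lower, member median -0.77, median of all genes 0.02). Npc1 cells had 2 lower (4.46% of all genes called, 1.76% lower, member median -0.27), Pik3c3 cells 3 lower (13.2%, 6.1% lower, member median -0.14) and Ctsd cells 0 called (0.2%, member median 0.02, 0 at an unadjusted p under 0.05 and 0 by DESeq2). Grn cells had 5 lower (25.2%, 12.7% lower, member median -0.31), and Trem2 cells 5 higher and 1 lower (22.2%, of which 11.3% higher and 10.9% lower, member median 0.74). The median of all genes lay between -0.02 and 0.03 in these comparisons. All 7 genes share the same Rosa26 libraries as control on each day, so the counts of different targets are not independent. The 7 genes were chosen with earlier results of these data known, so the shares of all genes are no test of these counts. All but C3 ranked from 127 to 689 by mean CPM among all genes, and small changes are called more readily at such levels.

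The change from day 4 to day 13 was tested for each target as the difference between the effects of the 2 days. In Atp6v1a cells 5 of 7 genes had a lower effect at day 13, beside 11.4% of all genes called, 5.82% lower: C1qb by -0.61, C1qc by -0.64, C3ar1 by -0.69, C5ar1 by -1.08 and Cfp by -0.87, with adjusted p-values from 4.12e-08 to 0.0013. In Pik3c3 cells 3 had a lower effect (6.19% of all genes, 2.58% lower), with Cfp at -0.75 (adjusted p = 2.59e-06), C5ar1 at -0.88 (adjusted p = 0.000535) and C3ar1 at -0.33 (adjusted p = 0.0402). The C3ar1 call ended without any 1 of 11 of the 20 libraries, and with the brain-marker covariate it was -0.30 (adjusted p = 0.0645). Among Regular libraries, with 1 of Pik3c3 at day 13, the values were -0.66 for Cfp (adjusted p = 0.00773), -0.76 for C5ar1 (adjusted p = 0.0798) and -0.28 for C3ar1 (adjusted p = 0.41). In Trem2 cells 5 had a higher effect at day 13 (7.95% of all genes, 4% higher). These were C3 by 1.57 ± 0.35 (adjusted p = 0.00168), C1qb by 0.76 ± 0.14 (adjusted p = 0.000203), C5ar1 by 0.71 ± 0.18 (adjusted p = 0.00861), C1qc by 0.53 ± 0.15 (adjusted p = 0.018) and Cfp by 0.53 ± 0.12 (adjusted p = 0.00162). Without the Low-input replicate 1 of day 4, C1qc gave 0.39 (adjusted p = 0.122), and with the brain-marker covariate C5ar1 gave 0.65 (adjusted p = 0.0589). No fit within 1 protocol can give the Trem2 differences, because Trem2 of day 13 is Low-input only and Rosa26 of day 4 Regular only. They rest on the protocol term, which for C5ar1 was 0.62. After subtracting the protocol difference, C1qb went from 9.839 to 9.391 log2 CPM in Rosa26 and from 9.889 to 10.23 in Trem2 cells. Cfp went from 8.715 to 8.423 and from 9.043 to 9.28, so the fall of the control is part of both differences. For Grn the effects of the 2 days did not differ detectably in any of the 7 genes (10.3% of all genes called, 1 member with an unadjusted p under 0.05, 0 by DESeq2), with C1qb at 0.15 (95% interval -0.12 to 0.42) and C1qa at 0.19 ± 0.20. With the brain-marker covariate C1qa was called for Grn, at 0.86 (adjusted p = 0.0246), and also for Trem2, at 0.76 (adjusted p = 0.0246) beside 0.25 ± 0.21 without it. Npc1 (0.2%) and Ctsd (0.00833%) had 0 called, 1 and 0 at an unadjusted p under 0.05, and 0 by DESeq2.

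In Rosa26 cells themselves, 2 of 7 genes were lower at day 13 than at day 4, beside 30.6% of all genes called, 15.6% lower. C1qb fell by 0.44 on the log2 scale (SE 0.10, adjusted p = 0.000314) and Cfp by 0.29 (SE 0.08, adjusted p = 0.00345). The other 5 genes gave -0.38 ± 0.24 (C3) to -0.07 ± 0.13 (C5ar1). Brain-marker sums rose from a mean of 137 to 281 CPM between these groups. With the brain-marker covariate C1qa at -0.59 and C1qc at -0.33 were called too.

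**Figure D5:**
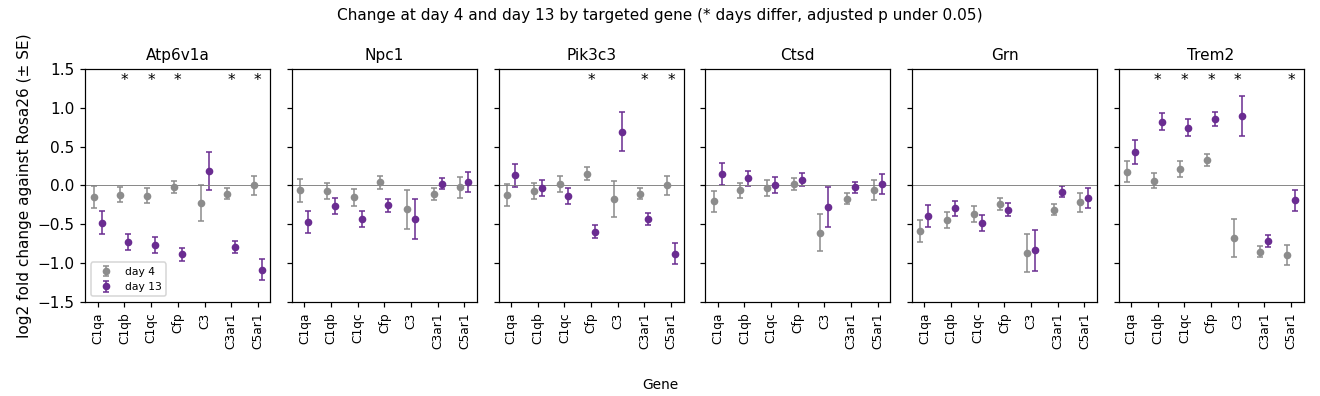
Log2 fold change ± SE of each gene against Rosa26 cells at day 4 (grey) and day 13 (purple), 1 panel per targeted gene, with an asterisk where the difference between the days had an adjusted p under 0.05. Asterisks stand over 5 genes for Atp6v1a, 3 for Pik3c3 and 5 for Trem2.

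Group means were ranked with 1 protocol difference per gene subtracted. Trem2 cells of day 13 stood first for C1qb (10.2 log2 CPM), C1qc (10.4 log2 CPM) and Cfp (9.28 log2 CPM). In each case they lay above the next group, Trem2 of day 4, by more than the mean of their SDs. Trem2 cells of day 13 also led for C1qa and C3, where the next group lay within the spread. Atp6v1a cells of day 13 stood last for C1qa, C1qb, C1qc, C3ar1, C5ar1 and Cfp, separated from the group above by more than the spread for C1qb, C1qc and Cfp. Grn cells of day 13 stood last for C3. Over the 14 group means, which share library protocol and scaling, Pearson's r was 0.957 between C1qb and C1qc, 0.937 between C1qb and Cfp, 0.904 between C1qa and C1qc and 0.852 between the receptors C3ar1 and C5ar1. It was 0.019 between C1qb and C3ar1. Within groups, over deviations of 69 libraries, it was 0.615 for C1qb with C1qc and 0.121 for the receptors.

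Among 7950 genes with a mean over 10 CPM, those whose 14 group means were most like the mean of the C1q genes were Mapk14 (r = 0.975), Grk2 (0.968), Arrb2 (0.965), Smagp (0.958) and Dbp (0.953). Those most like Cfp were Hmox2 (0.976), Dab2 (0.972) and Sgpp1 (0.969). Closest to C3 were Dapk1 (0.962), Fam107b (0.908) and Relb (0.895). C3ar1 was most like Adam8 (0.969), Lpl (0.962) and Eng (0.961). For C5ar1 these were Slc37a2 (0.941), C5ar2 (0.921), which encodes the other C5a receptor, and Clec4a3 (0.916). Each list holds the highest of 7950 correlations over only 14 means, so high values partly reflect the search itself. Shared regulation was not tested.

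Of 46 other complement genes listed, 15 passed the filter and were tested. Of the 31 that did not, 29 were under 1 CPM in every group mean, and the highest was Cfb (complement factor B) at 2.06 ± 1.88 CPM in Ctsd cells of day 4. The listed genes tested were 2 of the classical and lectin pathways, 5 regulators and 8 receptors or C1q-binding proteins, while 0 of 9 alternative and terminal components passed. At day 4, 1 higher and 1 lower were called in Grn cells (beside 8.04% of all genes), 4 higher and 4 lower in Trem2 cells (24.3%) and 0 in the other 4 groups (0.00833% to 0.175%). At day 13 the counts were 2 higher and 6 lower in Atp6v1a cells (24.4%), 0 and 1 in Npc1 (4.46%), 1 and 5 in Pik3c3 (13.2%), 0 and 0 in Ctsd (0.2%), 2 and 5 in Grn (25.2%), and 4 and 2 in Trem2 cells (22.2%). Their median changes at day 13 were -0.40 for Atp6v1a and 0.08 for Trem2.

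Among these other genes, Cd55, which encodes a membrane protein that dissolves convertases, rose in Trem2 cells by 1.37 at day 4 and 2.32 at day 13. Its level in Trem2 cells of day 13 was 84.9 ± 20.9 CPM, and in Rosa26 cells 15.5 ± 3.35 CPM (SD, n = 5 each). Fcna (ficolin A, a recognition molecule of the lectin pathway) rose in Trem2 cells by 1.1 and 1.08. Itgax, which encodes the alpha chain of complement receptor 4, fell in Trem2 cells by 3.61 and 4.31, to 1.297 ± 0.80 and 4.82 ± 1.31 CPM against 14.2 ± 0.60 and 65.7 ± 16.3 CPM. Its fall was not particular to Trem2 cells. By DESeq2, Itgax was also called lower in Grn cells of day 4 (-1.108) and day 13 (-1.044). The same held in Atp6v1a (-1.475) and Pik3c3 cells (-0.84) of day 13. In edgeR without a protocol term the Pik3c3 value was -0.39 (adjusted p = 0.155). In Low-input libraries of day 13 alone, with 1 Rosa26 library, Itgax gave -1.33 for Atp6v1a, -0.60 for Pik3c3 and -0.65 for Grn cells. C5ar2 fell with C5ar1 in Trem2 cells of day 4 (-1.64 ± 0.23), Atp6v1a cells of day 13 (-1.21 ± 0.21) and Pik3c3 cells of day 13 (-1.17 ± 0.21). Clu (clusterin, an inhibitor of the terminal complex) rose by 1.14 in Grn and 2.39 in Trem2 cells of day 4 and fell by 1.83 in Grn cells of day 13. Once the brain-marker covariate was added to the fit these values were 0.03, 0.66 and -0.56, and none was called.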

How the data were processed

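The authors deposited a table of estimated counts per gene, made with Salmon on GRCm39 from 3' tag libraries with unique molecular identifiers, per the submitters' processing notes and the labels' protocols. Salmon's version was not given in the sources used here. Reads were 75 bp and single-end. A second table deposited by the authors holds log2 CPM. It was used only as a check, and for the 7 genes its values lay a median of 0.03 from log2 CPM recomputed from the counts. Gene symbols came from a separate deposited table of genes. Collection times carry the unit hours in the labels and days in the series design. Days are used here.

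From there, 31.2% of the counts above 0 were not whole, and all were rounded. CPM were computed from library totals, with a median of 3404743 counts. Tests used R 4.3.3 and edgeR 4.0.16 (TMM scaling, filterByExpr by group, 1 mean per group and a protocol term, all 69 libraries, two-sided, Benjamini-Hochberg over 12008 genes). SEs were taken as the change's size over the square root of F. The steps were tested on simulated data. DESeq2 1.42.0, RLE scaling, no filter, no protocol term, a replicate block, each protocol alone, the same day alone, a brain-marker covariate, no Rosa26 replicates 2 and 5 of day 13, and leaving out each library were the alternatives. The lowest chi-square per degree of freedom between libraries of a group was 1.73, so none was counted as a copy.

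The 7 genes, the marker lists and the list of other complement genes were chosen with earlier results of these data known. Named among the other genes are those called in at least 1 targeted group with a change over 1 in size on the log2 scale, at most 8 by adjusted p, of which 6 were found and 1 is not reported here. Promoters are from RefSeq on GRCm38.p6, another build than that of the counts, and C1qa had no entry.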

Additional observations from a re-analysis of the deposited data

Results flagged for a closer look

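In 7 of 98 groups of libraries, taken gene by gene, 1 library stood apart from the rest of its group by Dixon's test, which chance gives in about 1 in 20 groups. For 4 of the 7 it was the lone Low-input library of its group. C1qa read 1089 CPM in replicate 1 of Trem2 cells of day 4, and 1260 CPM in replicate 5 of Rosa26 cells of day 13. C1qc read 1095 CPM and C5ar1 427.9 CPM in that same Rosa26 library. The others were low. C3 read 17.5 CPM in replicate 1 of Pik3c3 cells of day 13, C3ar1 1053 CPM in replicate 2 of Npc1 cells of day 4, and Cfp 368 CPM in replicate 3 of Pik3c3 cells of day 4. With 1 protocol difference per gene subtracted, the Rosa26 library lay at 9.60 log2 CPM for C1qa and 8.33 for C5ar1. Both were inside the range of its group (9.55 to 9.74 and 8.02 to 8.39). For C1qc it lay at 9.70, just above the others (9.62 to 9.69). Replicate 1 of Trem2 at day 4 then stood lowest for C1qa, at 9.43 log2 CPM against 10.10 to 10.15 in the other 4.

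In 13 cases the effect at day 13 differed from that at day 4 by the test of the difference itself (edgeR, adjusted p under 0.05). For Atp6v1a the differences on the log2 scale were -0.61 (C1qb), -0.64 (C1qc), -0.69 (C3ar1), -1.08 (C5ar1) and -0.87 (Cfp). For Pik3c3 they were -0.33 (C3ar1), -0.88 (C5ar1) and -0.75 (Cfp). For Trem2 they were 0.76 (C1qb), 0.53 (C1qc), 1.57 (C3), 0.71 (C5ar1) and 0.53 (Cfp). C3 in Trem2 cells was called lower at day 4 and higher at day 13. Protocol is uneven over the days in all 3 targets.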

How the results depend on the processing

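Of 133 values for the 7 genes over 19 comparisons, 132 kept direction and side of the threshold with RLE scaling and 132 with DESeq2. Calls of members in Grn cells of day 4 (6) fell to 3 with no protocol term. In Npc1 cells of day 13 (2) they fell to 0 with no protocol term, in Regular libraries alone, in Low-input libraries alone and without Rosa26 replicates 2 and 5, and to 1 in libraries of the same day and with the brain-marker covariate. In Grn cells of day 13 (5) they fell to 3 with no filter or without Rosa26 replicates 2 and 5, to 1 with no protocol term, and to 0 in Low-input libraries alone and with the brain-marker covariate. Pik3c3 cells of day 13 (3) had 5 with no protocol term. Day differences fell to 1 for Pik3c3 in Regular libraries and rose to 1 for Grn (C1qa) with the brain-marker covariate. Rosa26 cells over time (2) had 1 with no protocol term and 4 with that covariate. Leaving out single libraries gave 3 to 6 calls for Grn at day 4, 1 to 2 for Npc1 at day 13 and 2 to 5 for Grn at day 13. Without a protocol term C1qa reversed to 0.0084 for Npc1 and 0.017 for Grn at day 13, and Clu for Trem2 at day 13 to -1.67. C1qa for Grn also reversed to 0.029 in Low-input libraries alone. Causes were not tested. Same-numbered libraries of a target and Rosa26 deviated together by over 0.1 in 20 of 59 pairs (r of -0.10 to 0.40). Of the 59, 31 correlated best with the Rosa26 library of their own number, where chance would give about 1 in 5. This is a hint from the data, and not the design, that the numbers pair libraries. The main fit did not pair them, so anything shared by a number was left out of it. With a replicate block no call was lost, and 3 were gained: Cfp for Npc1 at day 13 (-0.26), C3 for Pik3c3 at day 13 (0.67) and its day difference (0.82). TMM-scaled CPM moved 0 of 98 group levels by over 1 SD. C3, at a lowest count of 16, is limited by depth.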
